A study of Triticum aestivum with 4 samples.

Results

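A total of 205 probe sets, the features of the array that each read a gene or a group of related transcripts, rose strongly with heat, and by nearly the same amount, in wheat flag leaves of both seed backgrounds. They were drawn from 61115 wheat probe sets, of which 33561 exceeded an intensity floor of 12.3 on at least 1 array. The floor is the median of all wheat values pooled over the arrays, and dimmer values were set to it before log2 was taken. A member had a log2 difference of at least 3, which is 8-fold, in each background, and its 2 differences lay less than 1 apart, which is 2-fold. Heat differences of at least 3 upward were found in 398 probe sets in the unprimed background, 1.19% of the measured ones, and in 251 in the primed background, 0.748%. The members are 0.611% of the measured probe sets. The members were selected on the measured heat differences NH minus NC and PH minus PC themselves, so these shares and the size of the rises follow from the rule, and no test was made on them.

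Flag leaves came from Yangmai 16, a cultivar of bread wheat (*Triticum aestivum*), and each of 4 groups was read on 1 Affymetrix array. NH were heated progeny of unprimed parents, NC unheated progeny of unprimed parents, PH heated progeny of primed parents and PC unheated progeny of primed parents. The heat of the progeny began on day 10 after anthesis and lasted 6 days, with days of 34 °C and nights of 30 °C, while unheated progeny had days of 26 °C and nights of 22 °C. Primed parents had gone through warm spells of 2 days (32 °C, nights 28 °C) when 7 and again when 9 leaves were out, and through a last spell of 7 days (34 °C, nights 30 °C) that began 10 days after anthesis. Both NH and NC came from parents without these spells. All groups shared the cultivar, were grown in pots, and treated plants were moved to separate growth chambers, so chamber and temperature cannot be told apart. The labels used here do not say how many plants stand behind an array. With no replicates, no value below has a replicate error, no difference has a p-value, and the number of arrays limits the precision.

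Plant cells answer high temperature first through heat stress transcription factors, which switch on chaperones such as the small heat shock proteins, HSP70 and HSP90. Over days of warmth, other programmes join, among them sugar and amino acid metabolism, protein turnover and, in leaves that feed the grain, earlier senescence. The flag leaf is the uppermost leaf of the wheat culm and a main source of sugars for the filling grain. Bread wheat carries closely related copies of most genes on its A, B and D genomes, so that one array probe set may read several of them.

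The named leaf genes were above the floor on every array, and several were lower with heat. Of the 7 leaf markers with a symbol, rbcl (Rubisco large subunit), petC, PsbO, PsbP, PRK, FBP and CAT1, 4 were 2-fold or more lower on NH than on NC and 1 was on PH than on PC, with median differences of -1.27 and -0.81. FBP had 112 on NH and 1692 on NC, and 316 on PH and 1557 on PC, while rbcl was nearly level, at 15575 on NH and 16201 on NC, and 16320 on PH and 16875 on PC. These rbcl values are the highest intensity on each array, and whether they lie at the upper limit of the signal was not tested. The summed intensity of the 7 leaf markers was 28788 on NH and 50259 on NC, and 37402 on PH and 51981 on PC, with rbcl the largest part. Of 11 grain storage and thionin genes, 5 exceeded the floor somewhere. The sum over all 11 was 1309 on NH and 419 on NC, and 656 on PH and 456 on PC. Most of the higher sum on NH came from 1 gene, LOC780582 (avnla), with 659 on NH and 11.2 on NC, and 72.9 on PH and 9.495 on PC. It alone of the 5 passed 2-fold upward, and LOC543213 was lower with heat in both backgrounds, by -0.40 and -0.63. Of the 2 raftin genes of the anther, 1 lay just above the floor, at 13.4 to 16.8. None of these leaf, grain and anther genes is a member. In whole leaves, a change in the number of cells of a type and a change in RNA per cell cannot be told apart. The part of the leaf and grain genes in the results below was not tested.

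Without heat the members were moderate to dim, and with heat they were among the bright probe sets of the array. Their median intensity was 892 on NH and 34.4 on NC, and 698 on PH and 31.1 on PC. On the heated arrays they spanned 102 to 9166 on NH and 99.1 to 8894 on PH. On the unheated arrays they spanned 1.72 to 723 on NC and 2.14 to 830 on PC. The ranges of heated and unheated arrays overlap between probe sets, while each member's heated value is above its unheated one in either background, as the rule requires. The median over all 33561 measured probe sets was 44.6 on NH, 44.0 on NC, 45.6 on PH and 44.9 on PC. The median member stood at percentile 97.3 of all wheat probe sets on NH and 68.7 on NC, and at 96.5 on PH and 67.0 on PC. Among the brightest 1% of probe sets, 612 on each array, were 54 members on NH and 0 on NC, and 49 on PH and 0 on PC. An intensity of 1000 was reached by 96 members on NH and 0 on NC, and by 83 on PH and 0 on PC. The rule sets part of these contrasts. It requires heated values of at least 8 times the floor, and unheated values at least 8-fold below the heated ones. The percentiles and counts are therefore descriptions.

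**Figure D1:**
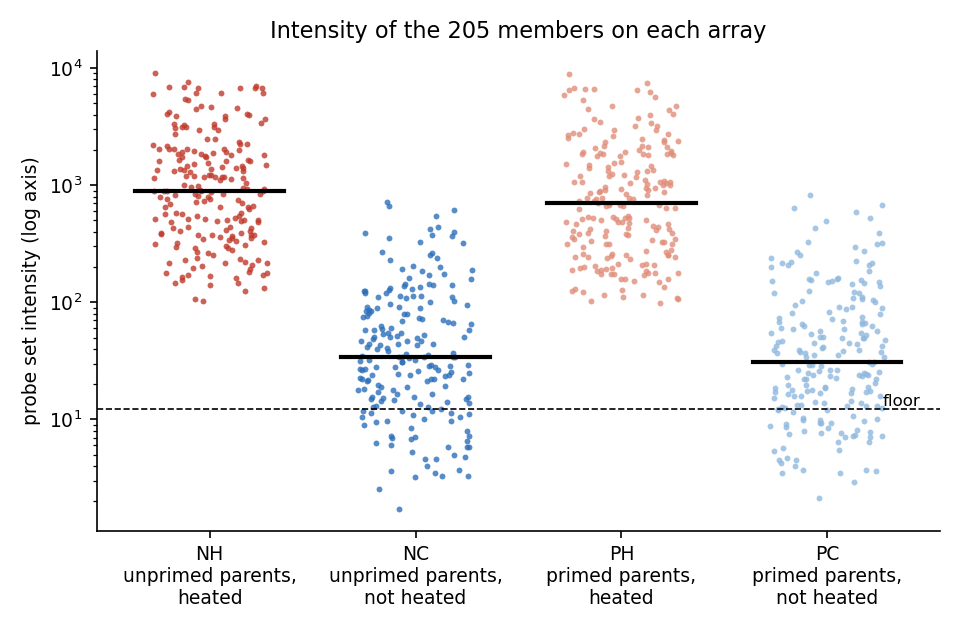
Intensity of the 205 members on each of the 4 arrays, on a log axis, with 1 point per probe set, a black bar at the median and a dashed line at the floor of 12.3. Medians were 892 (NH), 34.4 (NC), 698 (PH) and 31.1 (PC), and all members lie above the floor on both heated arrays, as the rule requires.

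The rise had a median of 4.14 on the log2 scale in the unprimed background, or 17.7-fold, and of 3.86 in the primed background, or 14.5-fold. It ranged over at least 3.06 to at least 8.57 in the unprimed and 3.002 to at least 8.78 in the primed background. Both upper ends and the lower end of 3.06 are lower bounds, since their unheated side lay below the floor and was set to it. Under a lower floor (percentile 25) the 2 probe sets at the upper ends had rises of at least 10.12 and of 9.32. Under a higher floor (percentile 75) they had at least 6.44 and at least 6.65. In both backgrounds at once, 84 members rose by at least 4, 32 by at least 5, 15 by at least 6, 9 by at least 7 and 3 by at least 8, the last being 256-fold. The counts thus thin out quickly above the limit of the rule, with a long tail of larger rises. By comparison, the median heat difference over all measured probe sets was 0.00075 for NH minus NC and 0.012 for PH minus PC.

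**Figure D2:**
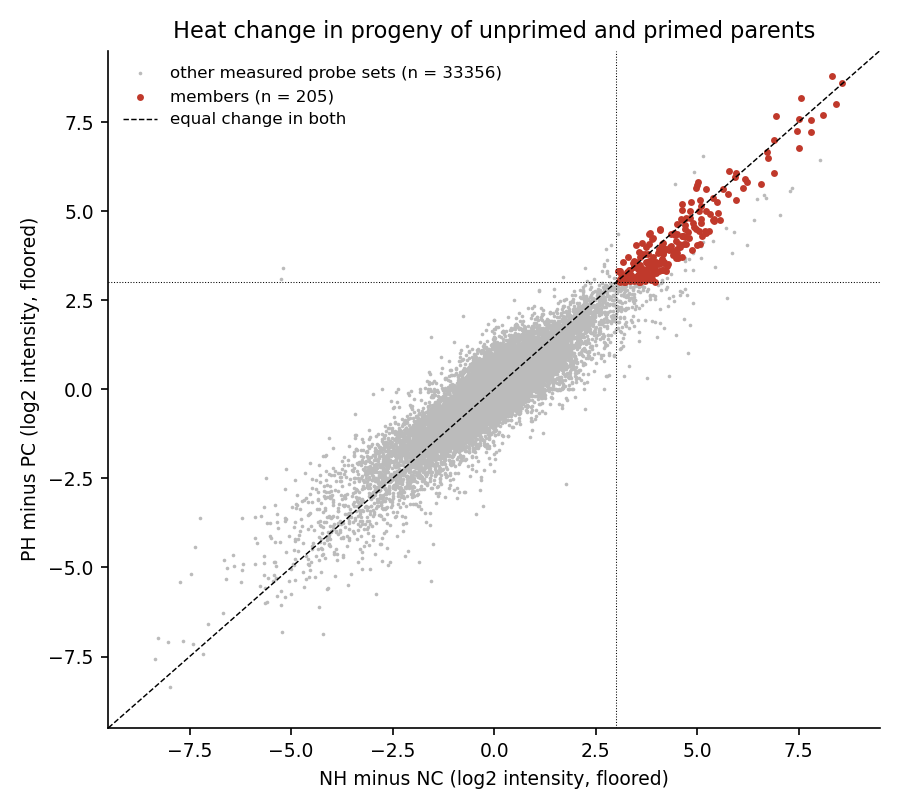
Log2 difference with heat in progeny of primed parents (PH minus PC) against that in progeny of unprimed parents (NH minus NC), for 205 members in red and the other 33356 measured probe sets in grey. Dotted lines mark the limit of 3 and the dashed line equal change; the members follow the dashed line by construction.

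The largest rises began from levels at or near the floor. Folds whose unheated side lay below the floor are lower bounds and are written "at least". Ta.19202.1.S1_at, a probe set without a gene symbol, had 4668 on NH and 3.31 on NC, and 4760 on PH and 6.47 on PC. That is at least 380-fold in the unprimed and at least 388-fold in the primed background, and the heated levels are nearly the same. Ta.5810.1.S1_at had 6780 on NH and 21.3 on NC, a 319-fold rise, and 5391 on PH and 8.42 on PC, at least 439-fold. With the lower floor (percentile 25) its log2 rises of 8.317 and 9.323 lie over 1 apart, so that it no longer meets the rule. Ta.16779.1.S1_at, with 4227 on NH and 3.65 on NC, and 3182 on PH and 5.42 on PC, rose at least 344-fold and at least 259-fold. A second probe set of the same transcript cluster, Ta.16779.1.S1_x_at, had 3396 on NH and 5.78 on NC, and 2526 on PH and 4.26 on PC. All 4 lay below the floor on 1 or both unheated arrays and between 2526 and 6780 on both heated ones.

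Among members above the floor on all 4 arrays, where the fold is measured on both sides, 5 rose by more than 7 on the log2 scale on average. Ta.22525.1.S1_x_at had 7686 on NH and 40.7 on NC, and 6797 on PH and 23.4 on PC, with rises of 7.56 and 8.18. Ta.21454.1.S1_x_at had 4728 on NH and 21.1 on NC, and 4521 on PH and 24.1 on PC, with rises of 7.81 and 7.55. Ta.23205.1.S1_x_at had 2468 on NH and 13.99 on NC, and 2425 on PH and 15.8 on PC. Here the heated levels of the 2 backgrounds differ by a log2 value of -0.026 (PH minus NH), the closest of the 5. Ta.23066.1.S1_s_at rose by 7.51 and 6.77, with 2346 on NH and 12.9 on NC, and 2173 on PH and 19.9 on PC. The fifth, LOC606323, is described with the named genes.

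The unheated level divided the members into 4 classes. On both unheated arrays 32 members, 15.6%, lay below the floor, and 21 more did so on 1 of them. The 32 had a median of 280 on NH and 201 on PH, the lowest heated medians of the classes. Single members of this class were far brighter, such as Ta.19202.1.S1_at with 4668 on NH and 4760 on PH. Starting from the floor, a member can also meet the rule at a lower heated level. The rises of the 32 are lower bounds with medians of 4.51 and 4.03. A further class held 103 members above the floor on both unheated arrays with a mean unheated intensity under 100. Their medians were 801 on NH and 34.9 on NC, and 537 on PH and 34.3 on PC. The last class held 49 members with a mean unheated intensity of at least 100, whose medians were 2233 on NH and 171 on NC, and 2118 on PH and 178 on PC. Their rises had medians of 3.59 and 3.38 and none exceeded 4.93 in the unprimed or 4.99 in the primed background. Since the unheated level is one side of every rise, the smaller rises of the bright class are a description and not a separate relation.

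**Figure D3:**
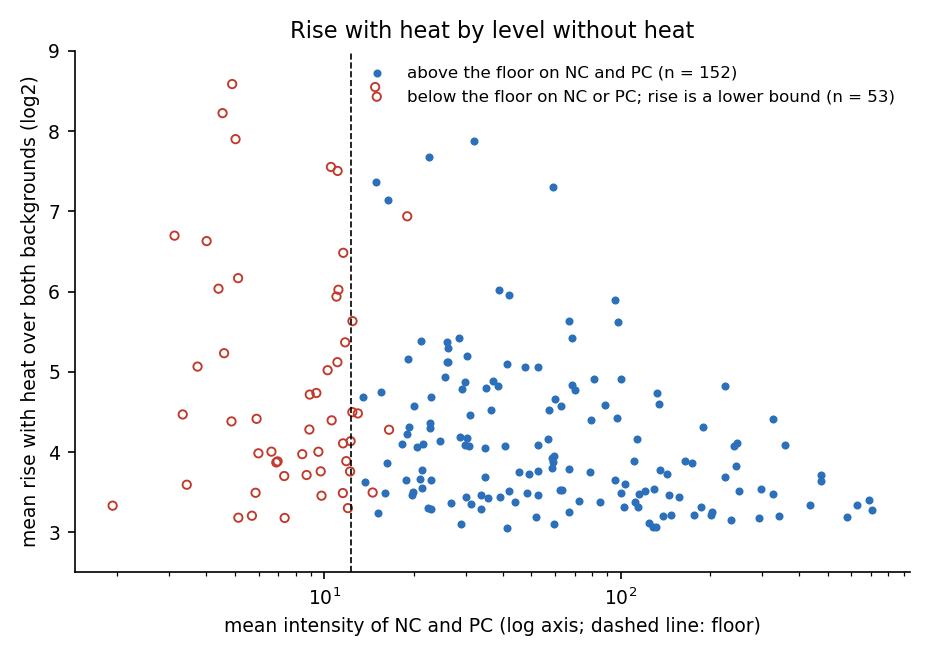
Mean rise with heat over both backgrounds (log2) against mean intensity of NC and PC (log axis) for the 205 members. Open red circles mark 53 members below the floor on NC or PC, whose rise is a lower bound; filled blue circles mark 152 above it on both, and the dashed line is the floor of 12.3.

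Some members were already well expressed without heat. The brightest by the mean of NC and PC, Ta.28394.1.S1_s_at, had 6974 on NH and 723 on NC, and 6672 on PH and 683 on PC, with rises of 3.27 and 3.29. Ta.10.1.S1_x_at had 6719 on NH and 548 on NC, and 7538 on PH and 830 on PC, the highest PC value of any member. Ta.28289.1.S1_x_at had 6139 on NH and 610 on NC, and 6525 on PH and 644 on PC, and its rises of 3.33 and 3.34 are 0.010 apart. These 3 probe sets carry suffixes for several transcripts. The others of the 5 brightest were XIP-I, described below, and TaAffx.14498.1.S1_at, with 6088 on NH and 422 on NC, and 5662 on PH and 527 on PC. Ta.27763.1.S1_at, with 6797 on NH and 256 on NC, and 6692 on PH and 395 on PC, was among the 5 brightest with heat and carries no such suffix. The choice of the brightest unheated members was made after their values were seen.

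The platform annotation gave 12 of the 205 members a gene symbol, for 10 genes, and left 193 without one. Over all wheat probe sets, 1273 have 1 symbol, 59842 none, and 0 several. Only 1 of the 10 genes has a functional name in the RefSeq gene table, which belongs to the assembly IWGSC CS RefSeq v2.1 and served for names alone. This is LOC542997, or XIP-I, a xylanase inhibitor protein that blocks xylanases of fungi and is related in sequence to plant chitinases. The table lists all 10 as protein coding. For the other 9 the sources used here give no function, and they are described by their values.

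XIP-I was the brightest named member without heat. Its member probe set had 6766 on NH and 661 on NC, and 4082 on PH and 498 on PC, which is 10.2-fold and 8.20-fold. The rises are 0.32 apart, and PH lay 0.73 below NH on the log2 scale while PC lay 0.41 below NC. A second XIP-I probe set without the suffix had 9759 on NH and 1286 on NC, and 6323 on PH and 916 on PC. Its rises of 2.92 and 2.79 fall just short of the limit, and both probe sets show the heated levels above the unheated ones in each background.

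LOC606323 had the highest heated level of all members, 9166 on NH and 8894 on PH, against 74.1 on NC and 43.9 on PC. The 2 heated levels differ by -0.043 on the log2 scale, and the larger rise in the primed background, 7.66 against 6.95 in the unprimed, goes with the lower level on PC. LOC100037518 had 6848 on NH and 97.1 on NC, and 4747 on PH and 94.1 on PC, with rises of 6.14 and 5.66. LOC606307 belongs to the same transcript cluster of the array design as LOC100037518. It had 948 on NH and 31.8 on NC, and 676 on PH and 26.5 on PC, with rises of 4.90 and 4.67. Both member probe sets of the cluster thus rose, and both were lower on PH than on NH, by 0.53 and 0.49. The only probe set of LOC606307 is of the x type, which can match several transcripts. Its signal therefore cannot be assigned to LOC606307 apart from the brighter LOC100037518.

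LOC542830 has 2 probe sets and both are members. The one without a suffix had 1738 on NH and 66.9 on NC, and 1311 on PH and 53.3 on PC, with rises of 4.70 and 4.62. The x-type probe set had 3696 on NH and 74.2 on NC, and 2934 on PH and 59.8 on PC, with rises of 5.64 and 5.62. For each, the backgrounds differ in rise by less than 0.08, the closest match among the named genes. LOC543338 also has 2 member probe sets. They had 847 and 1597 on NH and 22.6 and 54.9 on NC, and 956 and 1907 on PH and 29.6 and 50.04 on PC. It is the single named gene that was higher on PH than on NH, by 0.17 and 0.26 on the log2 scale.

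LOC543060 had 1651 on NH and 51.3 on NC, and 1039 on PH and 62.9 on PC. Its rises of 5.01 and 4.04 are 0.96 apart, close to the limit on the gap. LOC542846 had 543 on NH and 37.0 on NC, and 256 on PH and 30.7 on PC, and rose 14.7-fold and 8.33-fold. A second probe set of LOC542846, in another transcript cluster, is no member, with 511 on NH and 110 on NC, and 306 on PH and 90.8 on PC. It was higher with heat in both backgrounds, by 2.22 and 1.75.

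LOC606366 is a member through Ta.3828.3.A1_x_at, with 806 on NH and 54.5 on NC, and 361 on PH and 42.0 on PC. Of its other 3 probe sets, 1 in the same cluster had rises of 3.79 and 2.83. Another in that cluster, below the floor on both unheated arrays, had rises of at least 2.79 and at least 1.73. The remaining one was below the floor on all 4 arrays and gives no reading. For LOC543150 alone does a measured probe set disagree. It is a member through an x-type probe set with 1853 on NH and 200 on NC, and 408 on PH and 50.1 on PC. Its other probe set did not pass 2-fold, at 24.8 on NH and 24.6 on NC, and 21.8 on PH and 22.5 on PC. The response of LOC543150 therefore rests on a probe set that can match several transcripts.

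**Figure D4:**
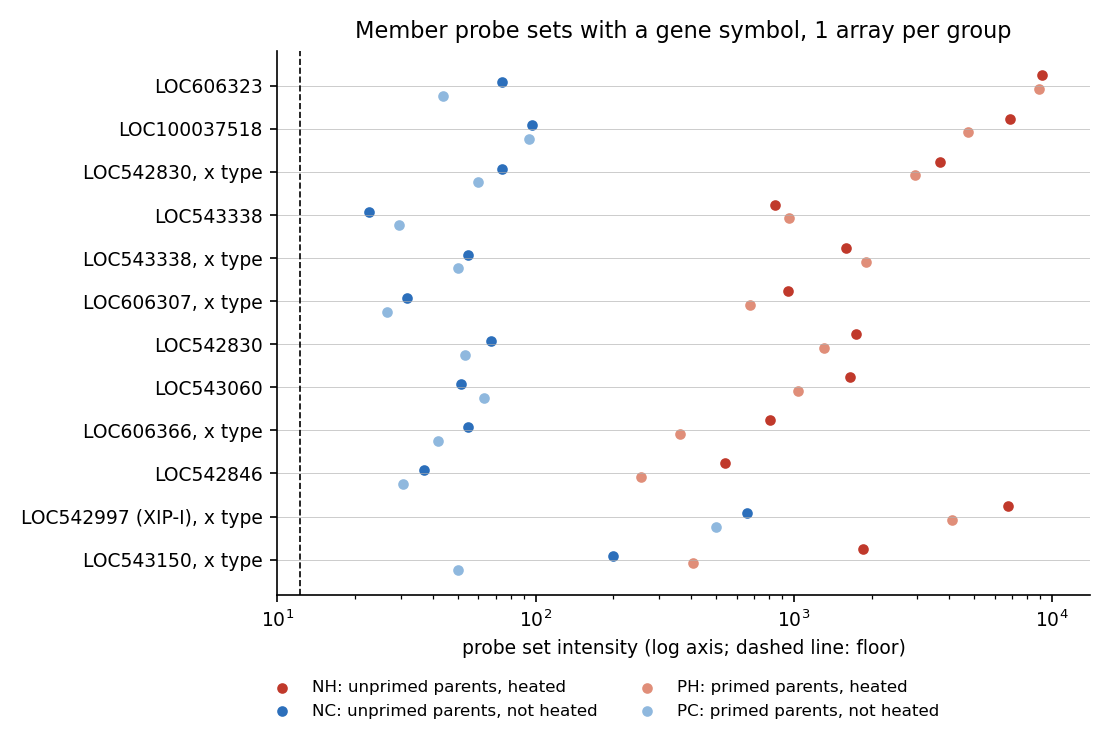
Intensity (log axis) of the 12 member probe sets with a gene symbol on NH and NC (dark red, dark blue) and PH and PC (light red, light blue), ordered by mean rise, with the floor of 12.3 as a dashed line. In every row both heated values lie to the right of both unheated values; the x type can match several transcripts.

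The rises of the backgrounds, with the floor applied, lay within 0.25 of each other on the log2 scale in 74 members, within 0.25 to 0.5 in 66 and within 0.5 to 1 in 65. In the 32 members below the floor on both unheated arrays, this gap compares only PH with NH. In 21 more, 1 unheated side was set to the floor, so the gap depends on it. The rise was smaller in the primed background in 152 of the 205 members, 74.1%, and larger in 53. Among the 2949 other measured probe sets whose mean rise passed 2-fold, 65.2% had the smaller rise in the primed background. The median of the rise in the primed less that in the unprimed background was -0.29 in the members and -0.16 in those others. The others entered at a mean rise of 2-fold and the members at 8-fold in each background. The part of the size of the rise in this contrast was not tested. On the heated arrays the members were lower on PH than on NH in 157 of 205 cases, with a median of -0.30 for PH minus NH. Over all measured probe sets that median was 0.00, and over the 2949 it was -0.085. On the unheated arrays the median for PC minus NC was 0.00 in the members. Among the 152 members above the floor on both unheated arrays, PC lay below NC in 83, and the median was -0.087. The contrast with the arrays' added poly-A control RNAs stands beside these values: their intensity on NH was 1.87 times that on NC, on PH 0.812 times that on PC, and on PH 0.557 times that on NH (medians over 36 probe sets). The hybridization controls had 1.02, 0.829 and 0.857 for the same pairs (27 probe sets). The ratio of 3' to 5' signal of ubiquitin was 0.929 on NH and 0.645 on NC, and 0.992 on PH and 0.750 on PC. The same ratio of sucrose synthase was 60.2 on NH and 50.9 on NC, and 55.1 on PH and 45.2 on PC, where the 5' signal was below the floor on NC and PC. The part of RNA input or quality in the smaller rise was not tested.

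Few members differed by 2-fold or more between the backgrounds at 1 temperature. Those lower in the primed background were a larger share of the members than of all measured probe sets. Without heat, 1 was higher and 7 were lower on PC than on NC, 0.488% and 3.41% of the members, where 0.325% and 0.399% of all measured probe sets were. With heat, 0 were higher and 16 were lower on PH than on NH, 7.80% of the members, where 2.13% and 1.41% of all measured probe sets were. These comparisons share their arrays with the rule, which holds the rises within 1 of each other, so a member that differs without heat tends to differ the same way with it. At both temperatures 4 members were 2-fold lower in the primed background. LOC543150 had the largest such differences, -1.99 without and -2.18 with heat. Ta.22614.1.S1_at had 3991 on NH and 142 on NC, and 1890 on PH and 59.3 on PC. TaAffx.132498.1.S1_at had 5369 on NH and 373 on NC, and 2494 on PH and 120 on PC. Ta.13876.1.S1_at had 3151 on NH and 26.5 on NC, and 1552 on PH and 11.6 on PC, the last below the floor. In all 4, both the heated and the unheated level were lower in the primed background. The single member higher by 2-fold on PC was Ta.20168.1.S1_at, with 198 on NH and 15.6 on NC, and 317 on PH and 38.0 on PC.

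**Figure D5:**
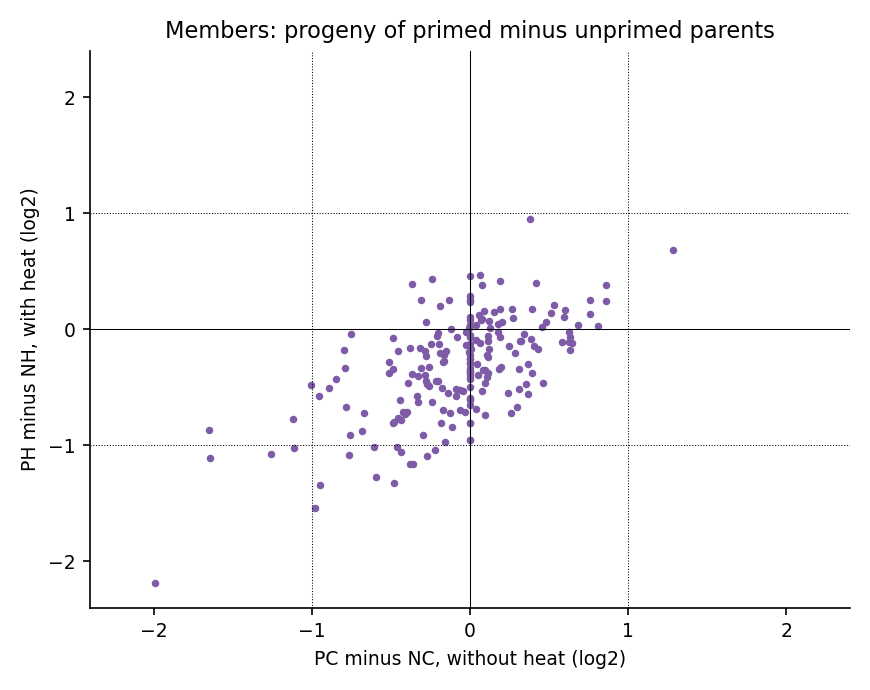
Log2 difference between progeny of primed and unprimed parents with heat (PH minus NH) against that without heat (PC minus NC) for the 205 members, with dotted lines at 2-fold. The diagonal band is set by the rule on the gap; 157 members lie below 0 on the vertical axis, and LOC543150 is the lowest point, at -1.99 and -2.18.

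The members came from 168 transcript clusters, marked by the prefix and first number of a probe set ID. Of these clusters 138 held 1 member and 30 held 2 to 4, with 67 members among them. Probe sets of one cluster read related sequence and are not independent. In the 30 clusters, the mean rise of the members differed by a median of 0.28 on the log2 scale and by over 1 in 9. The widest spread, 3.81, was in Ta.23066. The member clusters also held 98 measured probe sets that are not members. Their median heat difference was 1.81 in the unprimed and 1.30 in the primed background. In both backgrounds 57 of them, 58.2%, were higher by 2-fold or more, against 6.97% over the whole measured array. A fall of 2-fold or more was seen in 7 of them in the unprimed background and 4 in the primed, against 10.2% and 9.66% of all measured features. In 93 of the 168 clusters a single probe set was measured, so there is no second reading.

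The kinds of probe set differed from the array as a whole. Suffixes that stand for probes matching several transcripts (s, x or a) were carried by 78 members, 38.0%, against 29.1% of the measured probe sets. The x type alone made up 22.9% of the members and 14.4% of the measured. IDs that begin with TaAffx made up 20.0% of the members and 37.4% of the measured. These shares are descriptions, since probe sets of one cluster were counted separately.

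Around the limits, the values run on without a break. Just inside the limit for the unprimed background were rises of 3.06 (at least), 3.08 and 3.09, and just outside it 2.96, 2.84 (at least) and 2.79. For the primed background these were 3.002, 3.01 and 3.01 (at least) inside and 2.98, 2.98 and 2.97 outside. For the gap they were 0.97, 0.96 and 0.96 inside and 1.01, 1.03 and 1.08 outside. The last gap inside and the gap of 1.03 come from probe sets below the floor on both unheated arrays. A rise of at least 3 in both backgrounds with a gap of 1 or more was found in 30 further probe sets, of which 26 had the larger rise in the unprimed background. A rise of at least 3 in the unprimed background alone was found in 163, and in the primed alone in 16. The mirror rule, a fall of at least 3 in both with falls less than 1 apart, was met by 224 probe sets.

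Genes known to answer heat or drought could be looked up by symbol or synonym alone. Of the 205 members, 193 have no symbol and could not be looked up, so the counts do not show whether such genes are among them. Of 2 genes matching heat shock proteins and chaperones, 1 was measured and 0 were members. FKBP70, a peptidyl-prolyl isomerase that helps proteins fold, had 2109 on NH and 1120 on NC, and 1577 on PH and 959 on PC, under 2-fold in both. The gene hsp16.9A, which encodes a small heat shock protein, lay below the floor on all 4 arrays, at 2.07 to 3.28. Among 5 genes of late embryogenesis and dehydrin type, 3 were measured, 0 passed 2-fold, and the median differences were 0.10 and 0.07. Among 3 serpins, inhibitors of proteases, 1 was measured, Serpin-Z2A, with 49.9 on NH and 5.57 on NC, and 15.1 on PH and 4.09 on PC. The peroxidase PER1, 1 of 2 genes found for defence and the one measured, stood near the floor, at 12.8 on NH and 15.9 on NC, and 11.6 on PH and 16.3 on PC. The defence list missed the member XIP-I, a xylanase inhibitor, because its symbol and synonyms do not hold the searched words. The proton pump gene ha1, the 1 gene found for transport, had 3091 on NH and 2959 on NC, and 3456 on PH and 3090 on PC. No symbol or synonym matched the lists for lipid transfer proteins, sugar metabolism, proteolysis or transcription factors. Many of the searched words belong to protein products, which symbols and synonyms need not hold. A short or empty list therefore does not show that such genes lack a symbol. Beside these, 14.4% of the 612 measured genes with a symbol rose 2-fold and 18.1% fell in the unprimed background, and 10.8% and 17.2% in the primed. Their median differences were -0.07 and -0.13.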

How the data were processed

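The labels' protocols give 6 µg of total RNA per sample, labelled for 1 Affymetrix wheat array per group. The deposited table holds linear intensity, 1 value per probe set. Per the submitters' processing notes it was made with MAS5. Its version and scaling were not given in the sources used here. From the deposited intensity, 175 control probe sets (111 AFFX and 64 RPTR) were left out, values under the pooled median (percentile 50, 12.3) were raised to it, and log2 was taken. Median intensity of the wheat probe sets before the floor was between 12.1 and 12.7.

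Members, gene lists and limits were chosen with earlier results of these data known. The text names every member with a gene symbol, the 5 members with the largest mean rise, the 5 brightest with heat, the 5 with the largest rise above the floor on all arrays, and 3 probe sets on each side of each limit, by their values. Of 771 symbols, 770 matched the RefSeq gene table and 102 have a functional name or synonym. A gene in a list stands by its brightest probe set. No sequences were used here. The code for the rule was run on simulated data, with rises of known size planted in probe sets above the floor and a chosen noise level. That run checks how the rule is applied and does not test the members themselves. Tools were Python 3.11.15, numpy 2.4.6 and pandas 2.3.3.

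The members were chosen again with each array scaled to a common median, with quantile normalization, with a lower floor (percentile 25, 4.20) or a higher one (percentile 75, 53.6), with the floor's value added as a pseudocount instead, without the suffixes for several transcripts, and with other limits on the rise and the gap.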

Additional observations from a re-analysis of the deposited data

Results flagged for a closer look

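Control probe sets for wheat genes stay outside the rule, and 2 of them, both for sucrose synthase, an enzyme that cleaves sucrose, were over 2-fold higher with heat in each background. The 3' probe set had 1163 on NH and 298 on NC, and 1021 on PH and 276 on PC, which is 3.90-fold and 3.70-fold. The middle probe set had 339 on NH and 67.8 on NC, and 259 on PH and 75.3 on PC, which is 4.997-fold and 3.44-fold. None of the 175 control probe sets would have met the rule for the members: 0 passed. Among the 36 probe sets of the added poly-A controls, the median ratio of NH over NC was 1.87.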

How the results depend on the processing

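The number of members was 205, and it was 208 with median scaling, 203 with quantile normalization, 235 with the floor at the 25th percentile, 164 with a pseudocount, 140 with a gap under 0.5 and 235 with no limit on the gap. It moved by over 1.5 times with the floor at the 75th percentile (126), without the suffixes (127), and with a rise of at least 2 (555) or 4 (84). Of the 205, 203 were kept with median scaling, 201 with quantile normalization and 124 with the higher floor. The median rise, 4.14 in the unprimed and 3.86 in the primed background, was 4.17 and 3.84 with median scaling, 4.11 and 3.89 with quantile normalization, 4.16 and 3.96 with the lower floor, 4.03 and 3.65 with the higher floor, 4.01 and 3.71 with a pseudocount, and 4.09 and 3.76 without the suffixes. With a rise of at least 2 it was 3.06 and 2.80, with at least 4 it was 5.09 and 4.82, with a gap under 0.5 it was 3.93 and 3.85, and with no limit on the gap 4.27 and 3.92. The share with the smaller rise in the primed background was between 69.0% and 77.0% by scaling and floor, 70.1% without the suffixes, and 68.6% with a gap under 0.5. It was 70.5% with a rise of at least 2, 69.0% with at least 4, and 75.7% with no limit on the gap. The share below the floor on both unheated arrays was 5.53% with the lower and 34.9% with the higher floor, by the floor's own construction. The median of PC minus NC was -0.034 with the lower floor, -0.062 with a pseudocount and -0.026 with a rise of at least 4. Of 258 values of named genes and probe sets under the scaling, floor, pseudocount and suffix alternatives, 255 were above 0 and 246 at least 3. These genes and probe sets were chosen by their rises on the same arrays, so the counts are descriptions and no separate support. Without the suffixes 28 values remained, against 46 in each other setting, since the rest had no probe set left. The largest move was 1.55 with the lower floor, 2.13 with the higher floor and 0.96 with a pseudocount. Without the suffixes it was 3.89, for LOC606366. Ta.19202.1.S1_at, 8.57 for NH minus NC, had 10.12 and 6.44 with the lower and higher floor. Below 3 for PH minus PC with the higher floor and with a pseudocount were LOC542846 (2.25, 2.64), LOC543150 (2.93, 2.75) and LOC606366 (2.75, 2.78). Without the suffixes, XIP-I had 2.92 and 2.79. The rise of LOC543150 was then lost, at 0.0072 in the unprimed and -0.046 in the primed background from its other probe set. LOC606366 had 0 from a probe set below the floor on every array, which gives no reading. No paired analysis was possible because each group has 1 array. With 1 array per group, dim probe sets limit what can be seen: a level under 12.3 has no order.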
